A study of Mus musculus with 9 samples.

Results

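Blood stem and progenitor cells sorted from the bone marrow of mice at day 14 of leukemia were compared, gene by gene, with the same fraction from control mice, on 6 of the 9 arrays of the study. The arrays were taken by their titles, 3 labelled Day 14 and 3 labelled Control. The other 3, from day 7, were not compared. They entered the estimate of spread between replicates and the steps that chose, filtered and scaled the probe sets. All mice were C57BL/6, aged 8 weeks, and the sorted cells were CD45.1+LKS+ cells, which lack lineage markers, carry Kit and Sca-1, and are marked by the CD45.1 form of a leukocyte surface antigen. The control group is labelled only as control mice, with no time point, so elapsed time and leukemia cannot be told apart. The labels do not say how leukemia was induced or what the control mice received. They call the replicates biological without naming an animal or a sort for each, so the p-values rest on differences among these particular arrays, which may be partly technical. The series asks how normal stem and progenitor cells differ in gene expression between stages of acute myeloid leukemia.

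The LKS+ fraction holds the cells that renew the blood for life together with multipotent progenitors that divide and commit to a lineage. Most long-term stem cells rest outside the cell cycle with little protein and nucleotide synthesis, while progenitors replicate their DNA, build ribosomes and raise mitochondrial activity as they divide. In marrow that is filled with leukemic cells, normal cells may meet altered cytokines, adhesion and oxygen, none of which is given for these mice. Early response genes can react to outside signals within minutes.

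The markers of the sorted population were measured at clear levels in both groups. Kit, the stem cell factor receptor used in the sort, had intensities of 1704, 1766 and 1691 in control and 1905, 1672 and 1509.8 at day 14. Cd34, Flt3 and Slamf1, surface proteins of stem cells and multipotent progenitors, also lay above the 40th percentile of every array, and their log2 changes were -0.09, -0.08 and -0.00, with adjusted p of 0.251, 0.541 and 0.987. Procr, a surface receptor of long-term stem cells, had intensities of 382, 369.7 and 379 in control and 331, 269.6 and 248 at day 14, lower at day 14 without overlap. Its log2 change was -0.42, with an adjusted p of 0.0117 (limma) on the deposited scale, 0.0436 with quantile and 0.0639 with 75th percentile scaling, so the call did not hold under all 3. Cd48, an adhesion protein carried by multipotent progenitors and absent from long-term stem cells, had intensities of 1199.7, 1359 and 1202 in control and 598, 719 and 784 at day 14 and fell by 0.85 on the log2 scale (SE 0.10, adjusted p 9.83e-05, limma). Among defining genes of mature cells, Cd3d (T cells), Ncr1 (NK cells), Hba-a1 (red cells), Cdh5 (endothelium), Col1a1 (stroma) and Fcer1a (mast cells) lay below the 40th percentile on all 6 arrays. Others lay above it on all 6: Cd3e of T cells, Cpa3 and Mcpt8 of mast cells and basophils, Klf1 of red cell precursors, Pf4 and Gp9 of megakaryocytes, Mpo and Elane of granulocyte precursors, and Csf1r, Cd14 and Itgam of myeloid cells. Of these Mpo was the brightest, with 3524, 3214 and 3866 in control and 3969, 5047 and 4265 at day 14. Cd14 was close to the cutoff in control, with 17.3, 14.5 and 14.6 against percentiles of 14.48, 14.2 and 14.37. At day 14 it measured 36.9, 54.3 and 35.2. Intensities of the arrays correlated at 0.994 to 0.996 within a group and at 0.965 to 0.981 between the groups, across genes that are not independent replicates. The main axis of variation (a principal component holding 79.1% of the variance of the 6 arrays) set day 14 apart from control. The number of arrays limits the precision of each value, and the median SD of log2 intensity between replicates was 0.093 in control and 0.098 at day 14 (n = 3 each).

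A large share of the genes measured differed between day 14 and control, mostly by small amounts. Of 12652 genes tested with limma, 6626 (52.4%) had a Benjamini-Hochberg adjusted p below 0.05, which is what "called" means here; 2314 (18.3%) were higher and 4312 (34.1%) lower at day 14. The groups did not overlap for 7355 genes (58.1%). The balance of the 2 directions depended on how the arrays were scaled. The 75th percentile of intensity was 114.6 to 119 in the day 14 arrays and 127 to 128.5 in the controls. Quantile normalization, which gives every array the same distribution, called 2788 genes higher and 3389 lower, and setting all arrays to the same 75th percentile called 3953 higher and 2929 lower. Higher genes thus made up 34.9%, 45.1% and 57.4% of the calls, while the median log2 change of all genes was -0.06, 0.00 and 0.06. The deposited values therefore do not settle whether more genes rose or fell.

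**Figure D1:**
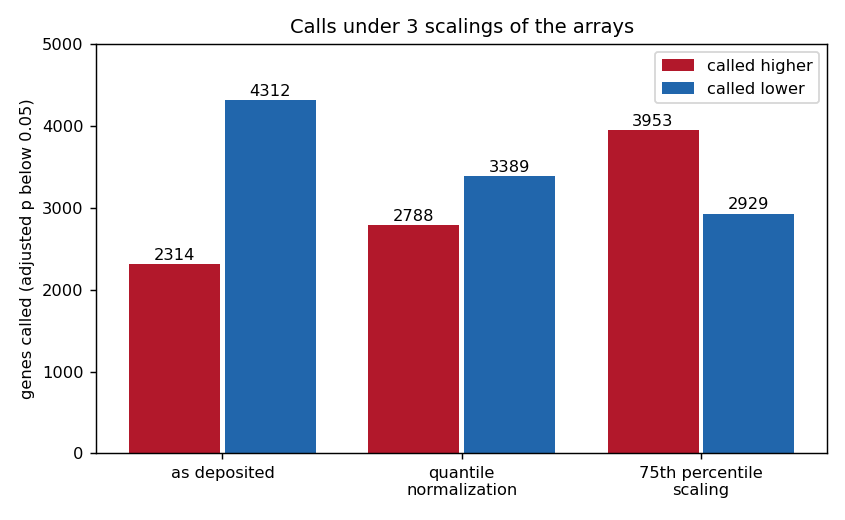
Number of genes called higher (red) and lower (blue) at day 14 against control under 3 scalings of the arrays, with 12652 genes tested in each. The deposited scale gave 2314 higher and 4312 lower calls, and 75th percentile scaling gave 3953 and 2929.

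For this reason the counts of list members below are of genes called in the same direction under all 3 scalings, a rule adopted after the effect of scaling was seen. It kept 5067 genes, 2174 higher (17.2%) and 2893 lower (22.9%), and these shares are the background for every list. They are not matched to signal, so lists of dim genes have no background of like level. In all, 1419 of the lower calls and 140 of the higher calls did not pass under all 3, and 0 genes were called in opposite directions. Among the 5067, the median log2 change was 0.37 for higher and -0.53 for lower genes. At least 2-fold changes were seen for 186 higher and 224 lower genes, at least 4-fold changes for 29 and 4, and at least 8-fold changes for 4 and 0. From below the 40th percentile on all controls to above it on all day 14 arrays went 42 called genes, and 32 went the other way. Calls also differed with signal: with genes divided by mean level into 4 equal groups, 708 were higher and 279 lower under the 3 scalings in the dimmest group, and in the groups above it, from dim to bright, the counts were 424 and 932, 429 and 978, and 613 and 704.

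**Figure D2:**
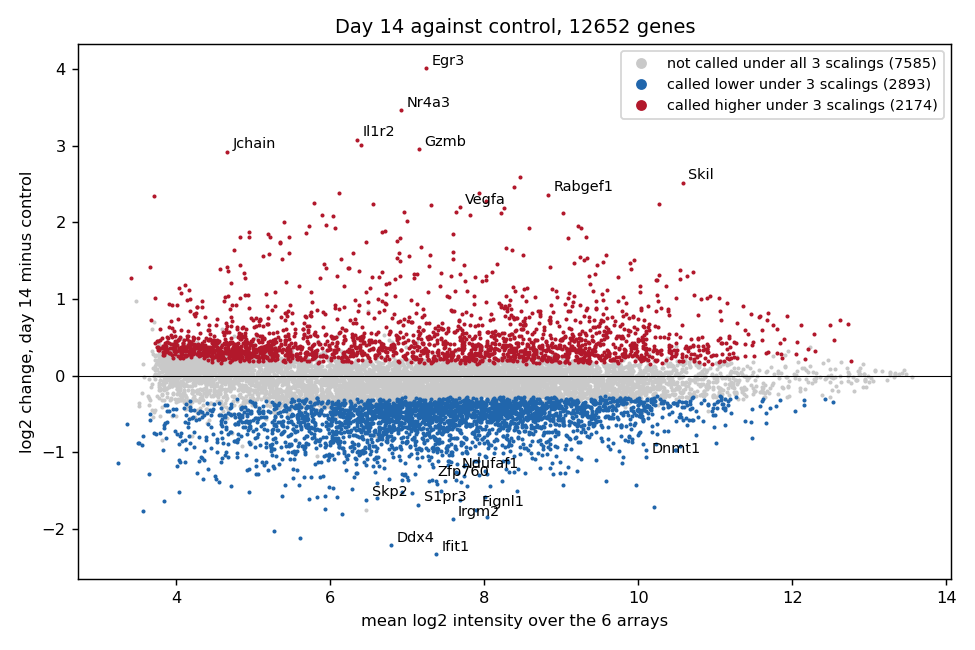
Log2 change at day 14 minus control for each of 12652 genes against its mean log2 intensity over the 6 arrays, with genes called higher (red, 2174) or lower (blue, 2893) under 3 scalings. The largest rises reach a log2 change of 4.01 for Egr3 and the largest falls -2.33 for Ifit1.

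Among the genes with large rises were Il1r2, Rabgef1, Rgcc, Vegfa and Skil. The largest rises were named only among genes whose groups did not overlap. Il1r2, a decoy receptor that binds interleukin 1 without signalling, had intensities of 25.1, 26.9 and 32.7 in control and 286, 204 and 231 at day 14. It rose 8.46-fold (adjusted p 2.98e-06) and the groups lay far apart. Rabgef1, an activator of the endosomal GTPase RAB5 and an editor of ubiquitin chains, measured 219, 202 and 181 in control and 1094, 1001 and 997 at day 14, a 5.14-fold rise, and its second probe set changed by 2.22. Rgcc, a regulator of the cell cycle induced by complement, measured 118, 96.6 and 109 in control and 646, 700.4 and 388 at day 14. Day 14 replicate 3 was the lowest of its group there but still above every control, and the second Rgcc probe set rose by 2.11. Vegfa, which encodes vascular endothelial growth factor, measured 122.7, 79.8 and 89.6 in control and 532, 409 and 390.2 at day 14 and rose 4.59-fold. Skil, a corepressor that restrains SMAD proteins, measured 740.2, 548 and 648 in control and 3723, 3782 and 3496 at day 14, and its 2 probe sets rose by 2.52 and 2.35.

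Cd28, Gzmb and Jchain, genes known from lymphoid cells, rose strongly as well. Cd28, a costimulatory receptor of T cells, measured 36.7, 26.9 and 28.6 in control and 163, 179 and 136 at day 14, with no overlap and a second probe set that rose by 2.12. Gzmb, a protease of cytotoxic granules, measured 90.1, 37.6 and 39.6 in control and 388, 343 and 469 at day 14, with control replicate 1 above the other controls. Jchain, which joins secreted antibodies, measured 6.22, 21.4 and 5.36 in control and 89.1, 57.0 and 66.5 at day 14; only control replicate 2 lay above the 40th percentile, so its fold is uncertain. Ebf1, a transcription factor of early B cells, lay below that percentile in all controls and was at least 2.06-fold higher at day 14. Lmna, the nuclear lamina gene, rose by 2.25 on its brightest probe set and by 0.32 on the second, and the 2 probe sets of Egr3 (4.01 and 0.27) and of Nr4a3 (3.46 and 0.37) disagreed in size in the same way.

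**Figure D3:**
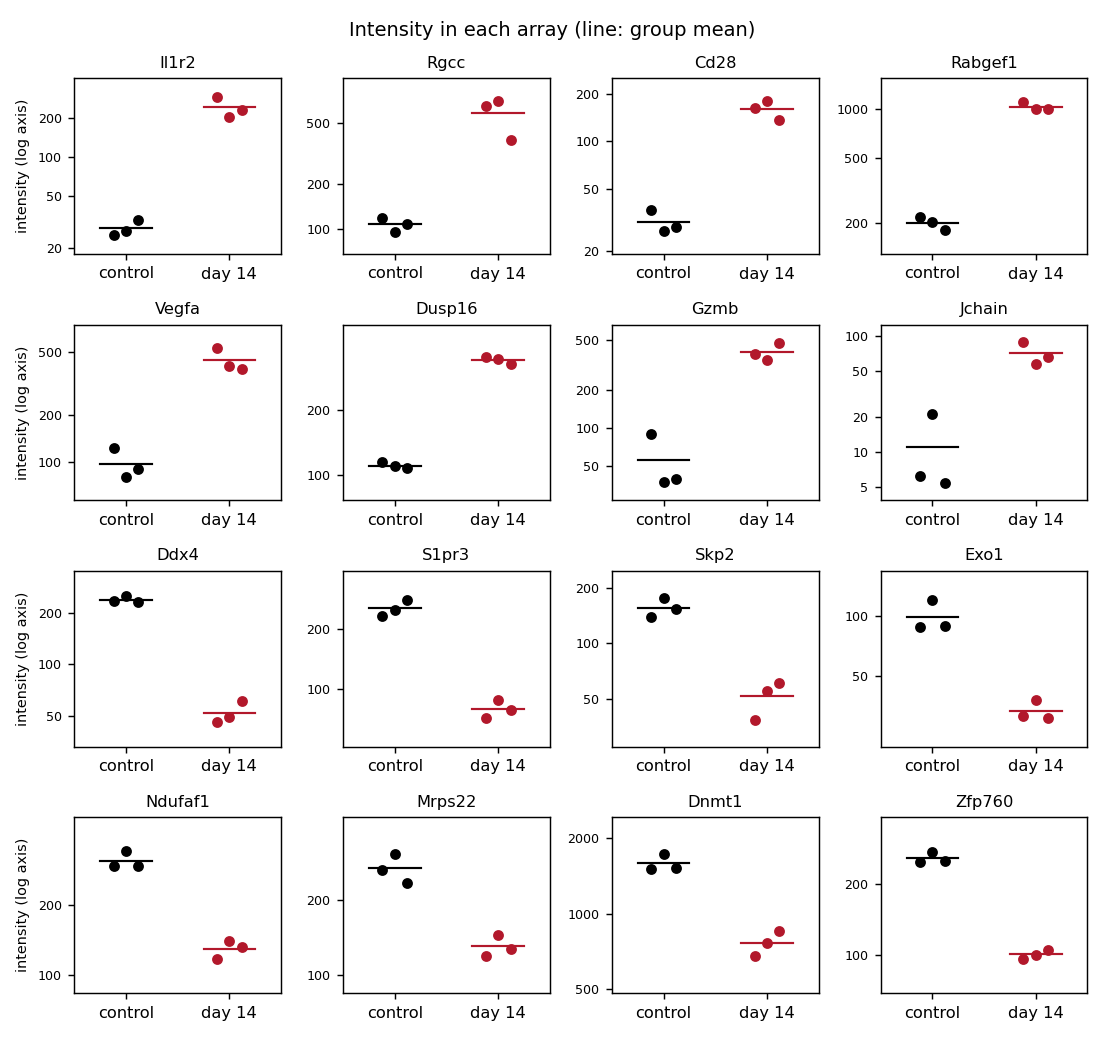
Intensity on a log axis in each control (black) and day 14 (red) array for 16 genes, with a line at each group mean (n = 3). In every panel the groups do not overlap, which was a condition for naming the largest rises and falls. Il1r2 rose 8.46-fold and Ddx4 fell 4.64-fold.

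Ddx4, Irgm2, Ifit1bl1 and S1pr3 were among the genes with the largest falls. Ddx4, an RNA helicase known from germ cells, measured 236, 251 and 232 in control and 46.1, 49.0 and 60.8 at day 14, 4.64-fold lower (adjusted p 1.3e-06). Irgm2, an immunity GTPase, measured 446, 319.9 and 351 in control and 92.5, 103 and 107 at day 14, and Ifit1bl1, a relative of the antiviral gene Ifit1, measured 86.7, 75.2 and 72.7 in control and 15.2, 22.3 and 20.9 at day 14. S1pr3, a receptor for sphingosine 1-phosphate, measured 234, 249.9 and 279.9 in control and 71.4, 87.7 and 78.3 at day 14, and its second probe set fell by 0.82. All day 14 values of these 4 genes lay below every control value, but the largest falls were named only among genes without overlap. Skp2, the ubiquitin ligase subunit that marks the CDK inhibitor p27 for destruction, measured 138, 177 and 153 in control and 38.5, 55.1 and 61.1 at day 14, and both probe sets fell, by 1.62 and 1.71 on the log2 scale. Fignl1, an ATPase of homologous recombination, measured 405, 523 and 389 in control and 101, 160.2 and 135 at day 14. Gimap7, a GTPase of lymphocytes, fell by 1.74 on its brightest probe set and by 0.40 on the second, and Lrr1, a substrate adaptor that helps to unload the replicative helicase, fell by 1.81 and 0.30. Vmn2r84, a vomeronasal receptor gene, and Gcsam, a signalling adaptor of germinal centre B cells, were below the 40th percentile on all day 14 arrays and at least 1.47-fold and 1.68-fold lower.

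Genes of mitochondrial protein synthesis and respiration fell broadly. Of 76 mitochondrial ribosomal protein genes, which build the ribosome that translates mitochondrial DNA, 55 fell under the 3 scalings and 0 rose, against 22.9% and 17.2% of all genes. Their median log2 change was -0.48, or -0.40 and -0.36 with quantile and 75th percentile scaling. Mrps22 measured 264, 306 and 235 in control and 119, 145 and 128 at day 14, and Mrps31 measured 198, 216 and 198 in control and 94.3, 104 and 114 at day 14. In both genes every day 14 value was below every control, and the log2 changes were -1.04 and -0.97. Members of this and later lists were mostly named from those called with the largest changes. Lack of overlap follows largely from that choice, and the groups did not overlap for 58.1% of all genes. Mrpl41 fell on both of its probe sets, by 0.95 and 0.81. The members ranged from -1.04 to 0.14.

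Complex I, the enzyme by which electrons enter the respiratory chain, had 31 genes lower and 0 higher of 42 tested, assembly factors included, with a median of -0.36. Ndufaf1, an assembly factor, measured 293, 340.2 and 293 in control and 117, 140.2 and 132 at day 14 (log2 change -1.25, SE 0.08). Ndufa5, a subunit, fell on both probe sets, by 1.11 and 1.10. Ndufa4, a bright gene named after complex I, encodes a subunit now assigned to cytochrome oxidase, complex IV. It measured 2748, 3086 and 2581 in control and 1474, 1512 and 1568 at day 14. The groups did not overlap for any of these genes. Of 52 genes of complexes II to V, 21 fell and 2 rose (median -0.27), led by Cox15 (-0.88), an enzyme of heme A synthesis for cytochrome oxidase, and Cox19 (-0.64), an assembly factor. Of 23 genes of the tricarboxylic acid cycle and pyruvate entry, 11 fell and 0 rose (median -0.30), or 1 rose without day 7 replicate 3; Fh1, fumarate hydratase, measured 1549, 1608 and 1561 in control and 881, 962 and 951 at day 14, and Pdhx of the pyruvate dehydrogenase complex changed by -0.84. Glycolysis went both ways. Of 20 genes, 6 fell, among them Tpi1 (-0.63), Pgam1 (-0.60) and Pkm (-0.42). The 3 that rose were the glucose transporters Slc2a1 (0.69) and Slc2a3 (0.42) and the aldolase Aldoc (0.52). Among all genes 22.9% fell and 17.2% rose, and whether the glycolysis counts differ from these shares was not tested.

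Cytosolic translation divided between the ribosome itself and the machinery that builds and feeds it. Of 43 cytosolic ribosomal protein genes, 2 rose and 3 fell under the 3 scalings, with a median log2 change of 0.01; their calls depended on the scaling, since 18 were higher with 75th percentile scaling and, on the deposited scale, 1 in place of 2 without control replicate 1 or 3, day 7 replicate 1, or day 14 replicate 1 or 2. Rpl27a, which rose, measured 703, 607 and 795 in control and 1236, 1082 and 1035 at day 14, and Rps4l, which fell, measured 102, 104 and 103 in control and 76.7, 82.8 and 88.8 at day 14. In contrast, of 60 genes of ribosome biogenesis and the nucleolus 31 fell and 1 rose (median -0.36), or 2 rose without control replicate 2. Nop16, a factor of large subunit assembly, fell on both probe sets, by 0.76 and 0.70, and the small subunit factor Utp20 measured 280.0, 339 and 296 in control and 159, 194 and 211 at day 14. Of 29 genes of RNA polymerases I and III and their factors, which make ribosomal and transfer RNA, 14 fell and 2 rose, with Gtf3c5 (-0.70) and Polr1a (-0.67) among those that fell; 1 rose without control replicate 1 or 2, day 7 replicate 1 or 2, or day 14 replicate 1. Of 19 cytosolic aminoacyl-tRNA synthetase genes, which charge tRNA with amino acids, 16 fell and 0 rose (median -0.43). Rars for arginine measured 480.0, 529.8 and 486 in control and 272, 299 and 314 at day 14, and Mars1 for methionine measured 431, 525 and 427 in control and 243, 286 and 264 at day 14. All 3 day 14 values were below all controls in both.

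Synthesis of nucleotides, breakdown of proteins and traffic through the nuclear envelope were lower too. Of 26 genes of purine, pyrimidine and one-carbon synthesis, 18 fell and 0 rose, with a median of -0.47. Tyms, thymidylate synthase, measured 31.8, 42.6 and 35.7 in control and 15.8, 15.1 and 12.4 at day 14, Umps, which completes uridine monophosphate, measured 462, 542 and 440.4 in control and 186, 256 and 263 at day 14, and Mthfd1 of the folate cycle fell on both probe sets, by 0.92 and 1.05. Day 14 lay below control in every array for the 3 genes, which were named for their large changes. Of 39 constitutive proteasome genes, 25 fell and 0 rose (median -0.38), and the assembly chaperones Psmg1 (-0.78), Psmg2 (-0.73) and Psmg3 (-0.87) led with the ATPase subunit Psmc5 (-0.74). Of 54 nuclear pore and transport receptor genes, 28 fell and 4 rose (median -0.33). Nup93, a scaffold of the pore, measured 273, 310.2 and 262 in control and 113, 138 and 139 at day 14, and Kpna2, an importin alpha that is high in dividing cells, measured 483, 754 and 559 in control and 239, 288 and 308 at day 14, while another importin alpha, Kpna1, rose on both probe sets, by 0.75 and 0.54.

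**Figure D4:**
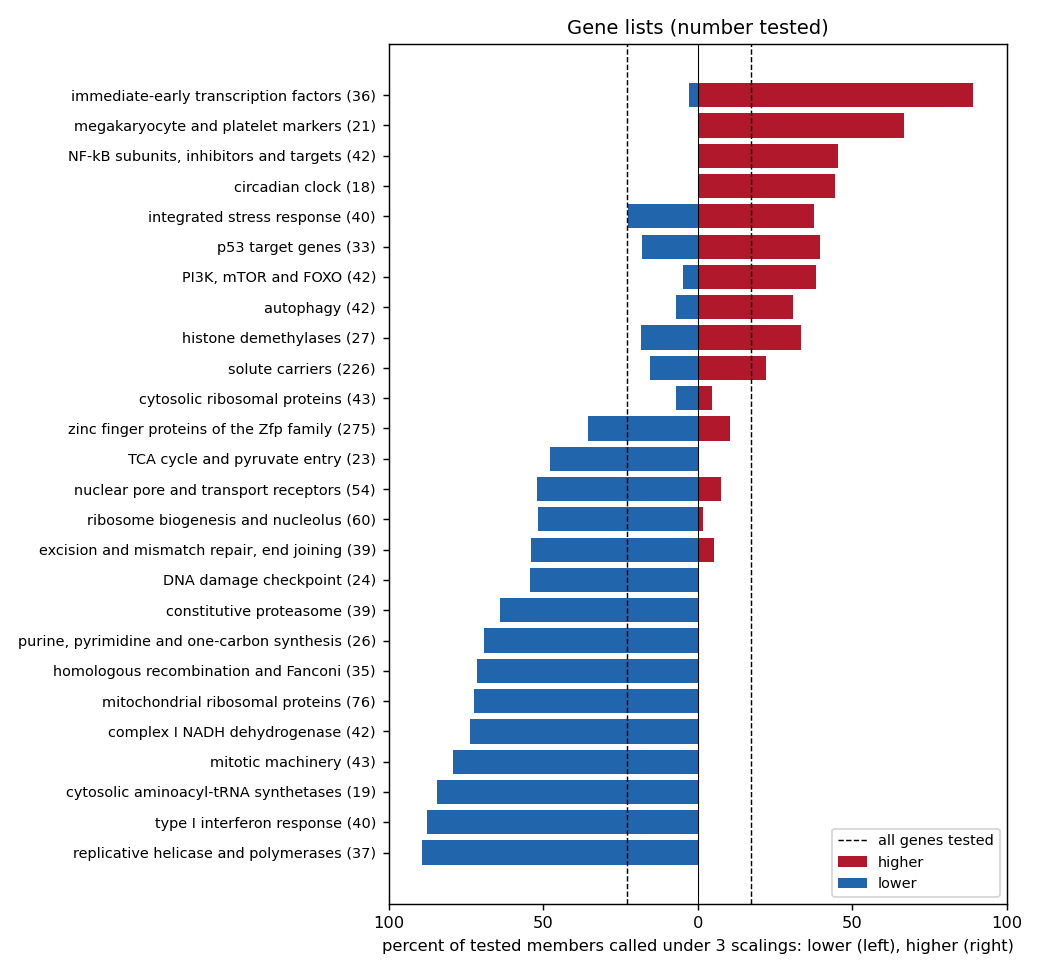
Percent of tested members of 26 gene lists called lower (blue, to the left) or higher (red, to the right) under 3 scalings, with the number tested in parentheses; dashed lines mark the shares among all genes tested, 22.9% lower and 17.2% higher. Replication genes (33 of 37 lower) and immediate-early factors (32 of 36 higher) lie at the ends.

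Genes that repair DNA and signal its damage fell with those that copy it. Of 35 genes of homologous recombination and the Fanconi pathway, which mend double-strand breaks and crosslinks, 25 fell and 0 rose, with a median of -0.58. Exo1, the nuclease that resects DNA ends, measured 88.0, 121 and 89.7 in control and 31.2, 37.5 and 30.6 at day 14, and its second probe set fell by 1.24. Brca1 fell by 1.19 on its brightest probe set, while the second changed by 0.34. Of 24 damage checkpoint genes, 13 fell and 0 rose (median -0.48). Rad1, part of the clamp that detects damage, measured 154, 199.6 and 157 in control and 46.8, 65.0 and 58.2 at day 14, Chek1, the checkpoint kinase, measured 354, 411 and 327 in control and 106, 164 and 139 at day 14, and Timeless, which protects replication forks, measured 471, 518 and 465 in control and 164, 213 and 189 at day 14. No day 14 value of these 3 reached the lowest control. Of 39 genes of excision repair, mismatch repair and end joining, 21 fell and 2 rose (1 without control replicate 2 or day 14 replicate 3; median -0.38), with Ung, which removes uracil from DNA, at -1.17, Mlh3 at -1.13, and Lig4, the end-joining ligase, at least 1.32-fold lower. The replicative helicase and polymerase list had 33 lower and 0 higher of 37 (median -0.77), and the mitotic list 34 lower and 0 higher of 43 (median -0.67).

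Promoter sequences of listed genes, in groups that fell or rose, were searched for motifs of the factors known to drive such genes. Windows of 300 bases, 250 before to 50 after the start given by RefSeq (GRCm38.p6), were used for the 8151 tested genes that had a single window, and both strands were read. Among 24 such genes of the replicative list, 37.5% held the E2F site (TTTCCCGC or TTTGGCGC), against 3.2% of the tested genes and 1.6% of all 22862 promoters. Among 32 of the mitotic list, 68.8% held the CHR element (TTTGAA), known from genes bound by the DREAM complex, against 11.7% and 18.5%, and 71.9% held the CCAAT box (CCAAT), against 38.8% and 38.2%. The interferon-stimulated response element, ISRE, stood in 44.0% of 25 type I interferon genes, against 3.0% and 3.6%. A match describes these letters in this window and does not show binding, and the lists were assembled from genes whose regulation is well studied.

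The windows of 5 fallen genes are printed because they hold these motifs, in capitals. They were picked after the matches were seen: of 26 named genes to which 1 motif each had been assigned, 14 had a usable window, 6 of these held the motif and 8 did not, the latter being Mcm10, Timeless, Chek1 and Fignl1 for E2F, Klf4 for the CArG box, Nr4a3 and Nr4a1 for the CRE, and Nuf2 for the CHR element. Ifit1 (chr19:34640639-34640938, plus strand) and Ifit3 (chr19:34583279-34583578, plus strand), antiviral genes, each held 2 ISRE matches. Cdc6 (chr11:98907901-98908200, plus strand), which loads the helicase, and Pole2 (chr12:69228141-69228440, minus strand), a polymerase epsilon subunit, each held 1 E2F site, and Cdk1 (chr10:69352863-69353162, minus strand), the mitotic kinase, held 2 CHR elements.
Ifit1: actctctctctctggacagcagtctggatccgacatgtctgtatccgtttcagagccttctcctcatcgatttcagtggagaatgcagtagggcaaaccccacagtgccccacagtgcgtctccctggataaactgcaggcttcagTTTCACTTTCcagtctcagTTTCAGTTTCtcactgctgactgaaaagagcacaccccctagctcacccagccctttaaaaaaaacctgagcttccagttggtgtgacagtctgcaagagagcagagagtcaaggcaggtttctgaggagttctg
Ifit3: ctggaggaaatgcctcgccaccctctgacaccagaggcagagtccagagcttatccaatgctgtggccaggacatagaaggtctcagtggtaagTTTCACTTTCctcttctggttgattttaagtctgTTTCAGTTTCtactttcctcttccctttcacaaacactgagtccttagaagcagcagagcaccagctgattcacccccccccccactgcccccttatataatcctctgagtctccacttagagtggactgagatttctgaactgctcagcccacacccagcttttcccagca
Cdc6: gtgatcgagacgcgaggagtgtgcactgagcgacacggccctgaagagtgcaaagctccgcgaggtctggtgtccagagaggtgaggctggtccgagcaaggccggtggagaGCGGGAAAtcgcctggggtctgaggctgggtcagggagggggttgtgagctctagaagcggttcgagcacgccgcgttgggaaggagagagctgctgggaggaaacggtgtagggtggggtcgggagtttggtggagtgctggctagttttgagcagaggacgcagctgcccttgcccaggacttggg
Pole2: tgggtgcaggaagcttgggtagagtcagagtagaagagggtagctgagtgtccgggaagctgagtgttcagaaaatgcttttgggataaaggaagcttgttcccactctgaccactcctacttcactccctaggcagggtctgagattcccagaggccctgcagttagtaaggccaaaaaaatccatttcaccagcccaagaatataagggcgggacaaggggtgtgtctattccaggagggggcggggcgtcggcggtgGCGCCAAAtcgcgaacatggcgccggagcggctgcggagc
Cdk1: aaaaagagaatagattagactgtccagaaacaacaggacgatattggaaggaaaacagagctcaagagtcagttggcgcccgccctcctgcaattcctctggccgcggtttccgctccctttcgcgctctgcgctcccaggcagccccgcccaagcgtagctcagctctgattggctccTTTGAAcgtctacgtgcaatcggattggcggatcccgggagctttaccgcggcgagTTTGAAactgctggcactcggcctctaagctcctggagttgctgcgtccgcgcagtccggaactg
All 5 genes were lower at day 14. Ifit1 measured 439.7, 355 and 332 in control and 55.9, 88.5 and 82.0 at day 14. Ifit3 measured 151, 78.3 and 89.7 in control and 18.9, 31.3 and 22.1 at day 14, with control replicate 1 the highest. Cdc6 measured 338, 419 and 334 in control and 97.1, 149 and 114 at day 14. Pole2 measured 277, 339 and 268 in control and 81.5, 120.4 and 113 at day 14, with a second probe set that changed by -0.65, and Cdk1 measured 312, 421 and 294 in control and 113, 129 and 146 at day 14. The groups overlapped for none of the 5.

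Over all calls the motif shares were closer together. The E2F site stood in 5.1% of 1976 promoters of genes called lower and in 1.8% of 1344 called higher under the 3 scalings; with the calls on the deposited scale alone, the shares were 4.4% of 2910 and 1.8% of 1438. The CCAAT box stood in 42.3% and 36.4%, and the TATA box (TATAAA), known from regulated and tissue-specific genes, in 5.4% and 10.5%, with 7.4% among the tested genes. For the CRE (TGACGTCA) the shares were 3.2% and 3.6%, and for the AP-1 site (TGAGTCA) 3.3% and 3.8%. Of the 224 genes that fell at least 2-fold, 147 had a single promoter window, and of these 8.8% held the E2F site, 10.2% the ISRE and 20.4% the CHR element. Of the 186 that rose at least 2-fold, 110 had one, and of these 6 (5.5%) held the E2F site, 3 (2.7%) the ISRE and 11 the CHR element.

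**Figure D5:**
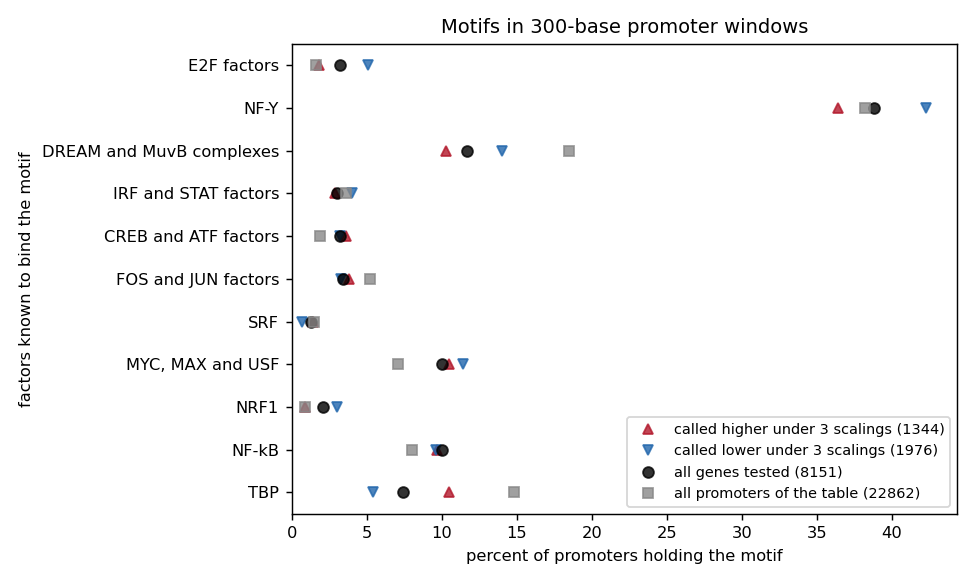
Percent of 300-base promoter windows that hold the motif of each factor group, for genes called higher (red) or lower (blue) under 3 scalings, all genes tested (black) and all promoters of the table (grey). The E2F motif stands in 5.1% of lower and 1.8% of higher genes, and the TBP motif in 5.4% and 10.5%.

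Chromatin genes were called in both directions, as were all genes, of which 17.2% rose and 22.9% fell under the 3 scalings. Dnmt1, the enzyme that copies DNA methylation after replication, measured 1506, 1724 and 1524 in control and 677, 766 and 851 at day 14, and Uhrf1, which guides it to new DNA, measured 898, 1139 and 737 in control and 352, 447 and 358 at day 14. Both fell on both probe sets, as did Dnmt3b, a de novo methyltransferase (-0.73). The histone chaperone Nasp measured 399, 501 and 345 in control and 138, 196 and 177 at day 14. Of 27 cohesin, condensin and other SMC-related genes, 15 fell, with the condensin subunits Ncapg (-1.16) and Ncapd2 (-0.81) and the topoisomerase Top2a (-0.80), and 3 rose; on the deposited scale 1 rose without control replicate 3, and 1 without day 14 replicate 2. Histone demethylases rose in 9 of 27 and fell in 5; Kdm6b, which removes the repressive methyl marks of Polycomb, measured 841, 727 and 956 in control and 1927, 1736 and 1583 at day 14, and Kdm7a measured 191, 168 and 203 in control and 392, 368 and 333 at day 14. Polycomb genes were 8 higher and 9 lower of 32, and histone acetylation genes 15 higher and 8 lower of 46, among them Ing3 (0.98) and the deacetylase Sirt1 (0.72) higher and Hat1 (-0.73) and Hdac1 (-0.53) lower. Of 6 replication-dependent histone genes tested, 3 rose and 0 fell (1 fell without day 14 replicate 1); H2ac19 measured 189.6, 144 and 191 in control and 533, 442 and 459 at day 14 and H1f2 measured 1324, 930.4 and 1686 in control and 2727, 2301 and 2662 at day 14. Such histone transcripts mostly lack a poly(A) tail, and the amplification starts from that tail, so the part of polyadenylated forms in these values was not tested.

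Zinc finger genes named Zfp, many of which encode KRAB repressors of transposable elements, were the list with most members tested, with 98 lower and 29 higher of 275 and a median of -0.20. The median was -0.13 and -0.08 under the other scalings, and the share of higher members (29 of 275) was below that of all genes (17.2%). Zfp809, which silences retroviral elements, measured 290.3, 364 and 354 in control and 143, 135 and 128 at day 14, with a wide gap between the groups, and Zfp760 fell 2.56-fold (adjusted p 1.19e-06). Zfp184 measured 77.1, 74.2 and 77.6 in control and 151, 152 and 136 at day 14 and Zfp281, a regulator of pluripotency genes, rose on both probe sets, by 0.74 and 0.76. Zfp84 fell by 1.33 on its brightest probe set, and its second was called higher, at 0.38.

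Most immediate-early transcription factors were higher at day 14. Of 36 immediate-early transcription factors, 32 rose and only Myc fell under the 3 scalings, from 1096, 1256 and 1370.5 in control to 731, 662 and 769 at day 14; on the deposited scale 2 fell without control replicate 2. Among 13 genes of the MYC network, 5 rose, including the MAX partners Mxd1 (0.60) and Mnt (0.66), which oppose MYC; the second probe set of Mnt changed by 0.05. Dusp16, a phosphatase of the JNK and p38 kinases, measured 114, 110.3 and 108 in control and 351, 341 and 324 at day 14 and rose 3.05-fold, and Dusp10, which acts on the same kinases, measured 53.1, 41.9 and 50.7 in control and 144, 190.5 and 156 at day 14. The list of MAPK phosphatases and RAS brakes held 11 higher and 2 lower of 32, with a median of -0.07; on the deposited scale alone 10 were lower, and that count became 5 with control replicate 1 left out and 4 with day 14 replicate 2 left out. Of 42 genes of the PI3K, mTOR and FOXO pathways, 16 rose and 2 fell (median 0.10; on the deposited scale 4 fell, and 2 without day 14 replicate 1 or 2), led by Klf2, a FOXO target, with 371, 260.3 and 413 in control and 1184, 1621 and 908 at day 14, and by Irs2, an insulin receptor substrate, with 73.3, 65.0 and 54.4 in control and 242, 207 and 198 at day 14. Day 14 exceeded every control for both. Of 51 JAK-STAT and cytokine receptor genes, 19 rose, including the inhibitors Socs3 (1.57) and Cish (0.90) and the receptor Il6ra (0.80), and 10 fell, including Ifngr2 (-0.99) and Il21r (-0.90). Of 42 NF-kB genes, 19 rose and 0 fell; on the deposited scale 3 fell, but 0 when control replicate 1 was dropped and 1 when any of these was: control replicate 3, day 7 replicate 1 or 2, or day 14 replicate 2 or 3. Rel, a subunit of NF-kB, measured 118, 85.5 and 104 in control and 409, 383 and 319.7 at day 14.

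Stress responses did not move as blocks. For comparison, 17.2% of all genes rose and 22.9% fell under the 3 scalings. Of 33 genes listed as p53 targets, 13 rose and 6 fell. The list includes Trp53inp2, an autophagy factor not established as a p53 target, at 2.10 (second probe set 0.55). Plk3, a stress kinase, measured 68.0, 52.5 and 72.1 in control and 158, 159 and 149 at day 14, while Xpc, a sensor of DNA lesions, changed by -0.54. Of 40 integrated stress response genes, 15 rose and 9 fell. The transcription factor Ddit3 (CHOP) measured 212, 149.6 and 168 in control and 557, 542 and 558 at day 14, with a second probe set at 0.40, whereas the serine synthesis enzymes Phgdh (-0.65) and Psat1 (-0.56) fell. Of 32 hypoxia response genes, 10 rose, including Bhlhe40, a repressor of the clock, with 122, 82.8 and 83.2 in control and 508, 399.6 and 355 at day 14, and 5 fell, including Ak4 (-1.05) and Car9 (-0.54). Of 18 circadian clock genes, 8 rose and 0 fell (on the deposited scale 2 fell, and 1 without any array but day 14 replicate 1): Rora measured 119, 109 and 115 in control and 390.3, 314 and 286 at day 14, and Nr1d2 measured 525, 586 and 482 in control and 1130.0, 999 and 1027 at day 14, both without overlap. Of 42 autophagy genes, 13 rose and 3 fell; Map1lc3a, a protein of autophagosome membranes, and Sqstm1, a cargo receptor, rose on both probe sets (1.05 and 0.90, 1.11 and 0.73). Among 38 apoptosis regulators, 5 rose, with the survival gene Mcl1 (0.76) and the killer Bcl2l11 (0.65), and 13 fell, with Casp8 (-0.83), Ripk3 (-0.73) and the mitochondrial Aifm1 (-1.22). Zc3h12a, a nuclease that degrades cytokine mRNA, measured 103, 86.1 and 96.2 in control and 299, 250.9 and 223 at day 14, and its second probe set changed by 0.56.

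Stem cell regulators showed moderate changes. Of 41 stem cell transcription factors, 12 rose and 5 fell, with a median of 0.00. Runx1 rose on both probe sets (0.76 and 0.57), and Gfi1, a repressor that restrains stem cell division, measured 319.7, 344 and 376 in control and 195, 181 and 188 at day 14. Of 15 HOX genes tested, 2 rose and 2 fell under the 3 scalings, each 13.3%, against 17.2% and 22.9% of all genes. Their median log2 change was 0.00. Hoxa9, a homeobox gene of stem cells, measured 2302, 2289.8 and 2609 in control and 1727, 1538 and 1805 at day 14. Hoxb4 measured 109, 104 and 126 in control and 81.2, 75.5 and 82.4 at day 14. Of 36 surface markers, 12 rose and 4 fell; Selp, P-selectin, measured 170.0, 168 and 166 in control and 399, 398 and 401 at day 14, Vwf, known from platelet-biased stem cells, measured 48.1, 39.0 and 43.5 in control and 108, 104 and 107 at day 14, and Cd27, a receptor of progenitors, measured 739, 852 and 802 in control and 560.0, 564 and 589.5 at day 14. The values of each group lay close together in these 3 genes. Of 51 integrin, selectin and homing genes, 17 rose and 7 fell: the sphingosine receptor S1pr1 rose by 0.80 where S1pr3 fell by 1.69, and the integrin chain Itgb2 measured 180.4, 190.1 and 212 in control and 93.3, 92.5 and 114 at day 14.

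Markers of several lineages shifted in the sorted fraction, and in such bulk samples fewer cells of a type and less RNA per cell cannot be told apart. Of 21 megakaryocyte and platelet markers, 14 rose and 0 fell (1 fell without control replicate 2; median 0.92), and their summed intensity was 8193 to 8660 in control and 11232 to 11634 at day 14; the defining gene Pf4 rose by 2.12, and Gp9 lay between 81.9 and 103.3 in control and between 93.1 and 118 at day 14. Of 23 B and plasma cell markers, 10 rose and 5 fell. Vpreb1, part of the surrogate light chain of precursor B cells, measured 42.8, 38.9 and 54.7 in control and 136, 173 and 108 at day 14, and Igll1, the other part, measured 26.6, 27.5 and 19.9 in control and 72.6, 77.3 and 62.6 at day 14, whereas Rag2, of antigen receptor recombination, was at least 1.85-fold lower and Dntt, which adds bases at its joints, measured 3991, 3076 and 4382 in control and 2008, 2306 and 2123 at day 14. The summed B markers overlapped, at 10776 to 12762 and 10662 to 11669, and of the defining genes Cd79a was below the 40th percentile in all controls and above it on 2 day 14 arrays, and Pax5 lay above it on 1 control and on 0 day 14 arrays.

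Of 24 T, NK and innate lymphoid markers, 12 rose and 2 fell, with a sum of 2265 to 2460 in control and 2698 to 3014 at day 14; Bcl11b, a T lineage factor, measured 18.9, 19.6 and 26.2 in control and 58.3, 74.96 and 60.9 at day 14, while the defining genes Cd3d and Ncr1 stayed below the 40th percentile and Cd3e measured 18.1, 20.8 and 18.0 in control and 24.2, 27.4 and 25.8 at day 14. Of 34 monocyte, macrophage and dendritic markers, 10 rose and 4 fell, with sums of 7904 to 9839 and 10145 to 11567. Clec7a, a receptor for fungal sugars, measured 37.2, 30.1 and 28.8 in control and 96.8, 201 and 128 at day 14, and Csf1r, the receptor for macrophage growth factor, measured 727, 494 and 1000.1 in control and 1260.5, 1865 and 1470.0 at day 14. Of 23 neutrophil markers, 8 rose and 4 fell, with sums of 12116 to 13329 and 13548 to 15792: Elane, neutrophil elastase, measured 79.8, 52.7 and 63.3 in control and 164, 323 and 211 at day 14, while Pglyrp1, of later granules, changed by -0.80. For Clec7a and Elane, day 14 replicate 2 was the highest array and replicate 1 the lowest of their group. Of 14 mast cell and basophil markers, 6 rose and 0 fell, with sums of 11492 to 11977 and 13829 to 14415, and Cpa3 measured 361, 296 and 301 in control and 634, 735 and 735 at day 14. Of 28 endothelial and stromal markers, 12 rose and 2 fell, with overlapping sums of 7345 to 7802 and 7544 to 8184. Of the defining genes, Cdh5 and Col1a1 lay below the 40th percentile. Cxcl12 measured 17.2, 24.5 and 13.7 in control and 13.9, 14.3 and 14.3 at day 14, above that percentile on 2 control and 0 day 14 arrays. Of 16 erythroid markers, 2 rose and 1 fell, with sums of 5402 to 6807 and 4967 to 5733, and on the deposited scale 1 to 5 rose and 1 to 4 fell with 1 array left out, with 5 rising without control replicate 1, and with 4 falling without control replicate 2 and 3 without control replicate 3. The defining gene Klf1 had 155.0 in control replicate 1 against 36.1 and 44.8 in the other controls. What part the cells marked by these genes had in the changes of other groups was not tested.

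Second probe sets gave a further reading of the same RNA. Of 6047 genes with 2 probe sets past the filter, 3113 were called on the brighter, and for 1778 of these (57.1%) the second was called in the same direction on the deposited scale. In 92 genes the second was called in the opposite direction, and in 1243 it was not called, 877 of them with the same sign. A change that rests on 1 probe set, as for most genes named here, therefore has no such check.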

How the data were processed

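RNA of the sorted cells was measured on Affymetrix Mouse Genome 430 2.0 arrays after 2 cycles of amplification, per the series' design text, which names Microarray Analysis Software 5.0 for normalization. The values are the authors' deposited intensity per probe set, on a linear scale. Of 45037 probe sets, 51.64% held equal values in at least 2 arrays, so how the arrays were normalized is uncertain and their scaling was varied. Such amplification starts at the poly(A) tail and can weaken signal from distant probe sets.

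Probe sets with 1 gene symbol in the platform annotation (34945; 932 had several and 9160 none) named 18193 genes, each represented by its probe set of highest mean log2 intensity. A floor at the 20th percentile of all intensities (5.81) was set before log2. Genes above the 40th percentile of their array (14.1 to 15.2) in at least 3 of the 9 arrays were tested, 12652 in all. Where a group lay below that percentile on all its arrays, a fold is given as a lower bound, comparing the brighter group's mean with the dimmer group's, where each dim array counts at its 40th percentile or its own value, whichever is larger. One limma 3.58.1 model (R 4.3.3) over the 9 arrays with 3 group means, no covariates and two-sided moderated tests gave day 14 minus control, with Benjamini-Hochberg adjustment over all genes tested and a threshold of 0.05. The steps were tested on simulated data. No label ties replicate numbers across groups, so the samples were not treated as paired. Deviations of same-numbered control and day 14 arrays correlated at 0.03, 0.08 and -0.09, and those of other pairs at -0.15 to 0.13. With 3 arrays a group, these values do not show whether arrays shared a sort or a processing day.

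Named genes were the 15 largest rises and falls among genes called, also after quantile normalization, and without overlap, leaving out predicted genes and clones; from each described list, at most 4 members called higher and 4 called lower; and markers of the sorted population. From this set the text names mostly genes that kept their call in every alternative. Defining markers and the genes of the promoter search are named besides. Members, lists, motifs and tests were chosen with earlier results of these data known. The rule of 3 scalings, the gene lists for motif shares and the restriction to genes with 1 promoter window were chosen after seeing the data. Alternatives were quantile normalization, a common 75th percentile, omission of the floor, an added offset of 32 in its place, a dim-signal filter that was absent or set at the 60th percentile, averaged probe sets per gene, probe sets tested singly, the 6 arrays alone, a replicate block, a trended robust prior, array weights, a test against a 2-fold change, and fits without each array in turn.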

Additional observations from a re-analysis of the deposited data

How the results depend on the processing

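With any single array left out, between 5680 and 6422 of 12652 genes were called, 1865 to 2225 higher and 3815 to 4197 lower, where the fit to all arrays gave 6626, 2314 and 4312. In all 6 fits without a control or day 14 array, 4950 genes were called in the same direction, 4403 of them (1540 higher, 2863 lower) also under the 3 scalings. With 75th percentile scaling the higher calls went to 3953. Every probe set tested on its own gave 10904 calls of 23263, with 4074 higher and 6830 lower, because more features were tested. A limma test against a change of at least 2-fold called 53, with 46 higher and 7 lower, so most calls are of smaller changes. With the replicate number as a block, 6333 genes were called. The count of genes with both probe sets called in the same direction was 1778, and 1655 and 1805 under quantile and 75th percentile scaling. The other alternatives, without floor, with an offset, without a filter or with a stricter one, with averaged probe sets per gene, with only the 6 arrays, a trended robust prior or array weights, gave 5763 to 6709 calls. Of 464 called genes that the naming rule gave, 391 kept their call in every alternative, tests against a 2-fold change and of single probe sets aside, and 73 lost it in at least 1; the text names the former almost alone, so their stability reflects that choice. Dim probe sets have folds that the floor and the background compress, and 3 arrays a group limit what small changes can be seen. The gene lists and their direction were known from these data, so their counts are descriptions.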
